A study of Bos taurus with 24 samples.

Results

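Monocyte-derived macrophages (MDMs) of cows with a low nitric oxide response were followed here through the first 3 h of contact with E. coli. The libraries were chosen by their labels alone, as low responder and 3 h, which gave 6 of the 24 mRNA libraries of the study. They were taken as 3 cows with 1 control well and 1 exposed well each, since the library codes pair the wells by a number (91, 92 or 93). The numbers recur in other groups of the study and the labels do not say what they stand for, so that "cow 91" means here the pair of wells with that number. The whole study also holds high responder cows and a time point of 18 h. All cows were lactating female Holstein. Blood mononuclear cells were left to attach, and the adherent cells grew for 6 days with GM-CSF, the granulocyte-macrophage colony-stimulating factor, in control and exposed wells alike. The factor was a recombinant bovine protein, given at 5 ng/ml. Exposed wells received E. coli killed with paraformaldehyde (PFA) at a multiplicity of infection (MOI) of 5, so that the bacteria could not grow. Adherence was the only selection named in the protocol, so that other adherent cells could remain. The study did check the harvested cells, by their uniformity in size and by flow cytometry for autofluorescence, CD14 and CD205.

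Macrophages recognise lipopolysaccharide (LPS) of the outer membrane of E. coli through TLR4 and its co-receptor CD14. Adaptor and kinase cascades then release NF-kB and interferon regulatory factors, which switch on cytokines, chemokines and the enzymes that make antimicrobial products. Inducible nitric oxide synthase, encoded by NOS2, makes nitric oxide from arginine, and the low responder label rests on a low output of that product in vitro. Feedback inhibitors of NF-kB and of the kinases are induced along with the first cytokines.

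The libraries held between 6297189 and 14615652 counts, which are estimated numbers of read pairs per gene. Of the 24616 genes listed, 9959 had no count in any of the 6 libraries and 11264 passed the filter on low counts and were tested. A gene was called when edgeR's quasi-likelihood test gave a Benjamini-Hochberg adjusted p below 0.05 and the fold change was above 1.5, and all adjusted p-values given are from that test over all tested genes. Levels are CPM, counts scaled to a common library size after normalization for library composition, always in the order of cows 91, 92 and 93. A change is a log2 fold change, exposed against control within cows, with its standard error (SE, 3 cows). The changes given per cow are computed with 2 prior counts, which pulls those of low genes toward 0. The p-values measure the spread between pairs of wells, estimated over all 12 libraries of 3 h, those of the high responders included. A permutation test of 3 against 3 wells that ignores the pairs cannot give an exact p below 0.1. A permutation that keeps the pairs has a higher floor still, so that no gene was tested outside the fit. Gene symbols could be assigned to 2798 genes only, among them 39.6% of the genes called higher, 19.3% of those called lower and 17.4% of the tested genes that were not called. Of the 2227 tested genes with a symbol, 443 were called higher and 169 lower, and every count per list below is to be read against these.

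The 7 macrophage markers with a symbol, CD14, CD68, CSF2RA, AIF1, FCER1G, MSR1 and CTSS, were all expressed. Together they gave between 7156 and 9601 CPM in the control wells and between 8557 and 11206 CPM in the exposed wells, and none of the 7 was called. Of markers of other cells, the B cell gene CD79A reached at most 1.75 CPM, the NK cell gene PRF1 at most 0.959 CPM and the neutrophil gene LTF at most 0.591 CPM, while the epithelial gene KRT18 had no count in any of the 6 wells.

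In all, 17.7% of the tested genes were called, 1119 higher (9.93%) and 876 lower (7.78%), against 3877 genes with an unadjusted p below 0.05. The rise was steeper than the fall. Of the genes called higher, 283 changed by more than 4-fold and 66 by more than 16-fold, while only 53 of those called lower changed by more than 4-fold and 1 by more than 16-fold. The genes called higher took between 11.6% and 12.1% of all counts in the control wells and between 28.3% and 31.8% in the exposed wells, and those called lower went from between 3.99% and 4.49% to between 1.63% and 1.83%. The direction was the same in all 3 cows for 1991 of the 1995 called genes, which a call within these same cows largely requires. Across the tested genes, the log2 changes of any pair of cows correlated with Pearson's r between 0.766 and 0.820, over 11264 genes that share each cow's libraries.

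The split between rise and fall depended on how the libraries were scaled. With plain library totals in place of the composition factors, the median log2 change of all tested genes moved from -0.03 to -0.43, and 642 genes were called higher and 2977 lower, so that the higher genes were 17.74% of the calls in place of 56.09%. All changes given here are relative to the middle of the tested genes, and a change in the total RNA of a well cannot be seen in these data. In a bulk library, fewer cells with a transcript and less of it per cell cannot be told apart. Of the genes named below as having risen, TLR2, BHLHE40, IRF9, TREM1, ABCA1, C3, PLAU, ZMIZ1, S100A9 and FTH1 lost their call with plain library totals, an alternative chosen after the data were seen.

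Cow 92 had the widest changes. Its log2 change was the largest of the 3 in 567 of the 1119 genes called higher and in 523 of the 876 called lower, with a median of 1.31 for the higher genes against 1.19 in cow 91 and 1.08 in cow 93. For the lower genes the medians were -1.10 in cow 92, -0.88 in cow 91 and -0.86 in cow 93. The libraries of cow 92 were the smallest, with 6297189 counts in the control well and 6475369 in the exposed well. Whether their depth enters these differences between cows was not tested. Without cow 92 the count of calls was 932, without cow 91 it was 1153 and without cow 93 it was 1387.

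**Figure D1:**
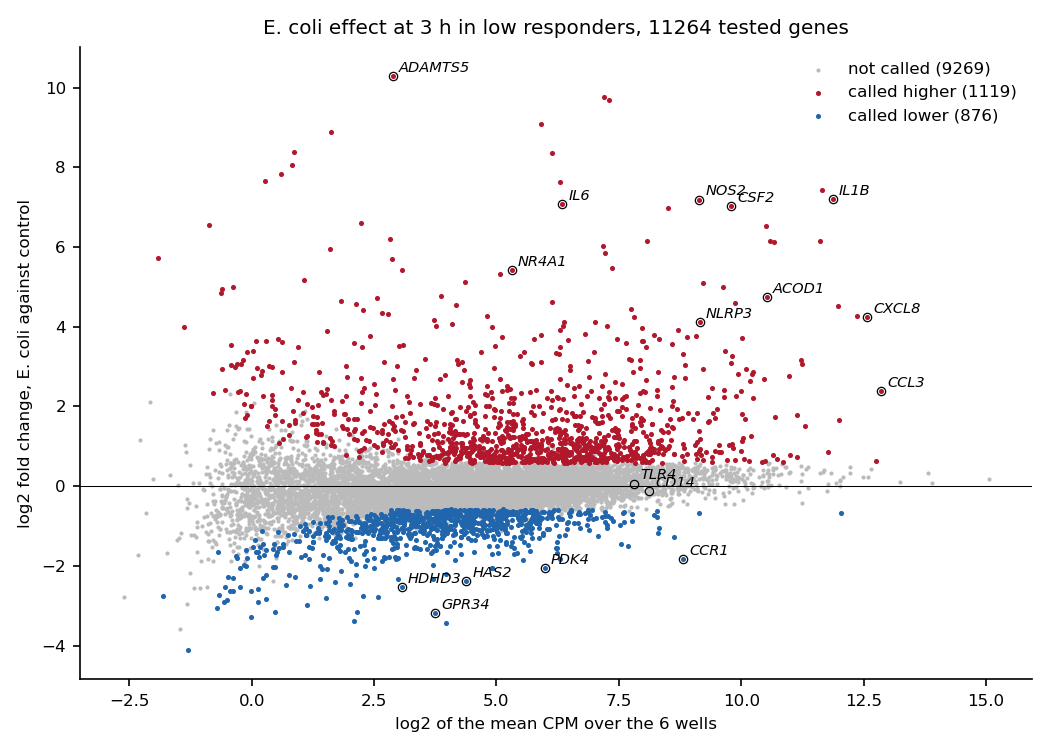
Each point is 1 of the 11264 tested genes, placed by its mean level over the 6 wells (log2 CPM, horizontal) and its log2 fold change of exposed against control wells at 3 h (vertical). Red and blue points are the 1119 genes called higher and the 876 called lower, and the red cloud reaches much farther from 0 than the blue one.

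Among cytokines, 4 of the 6 tested members rose and none fell. IL1B, the secreted starter of fever and local inflammation, stood at 34.6, 35.6 and 93.8 CPM in the control wells and at 5082, 8308 and 8902 CPM in the exposed wells. The groups are far apart, with the control well of cow 93 the highest of its group. The change was 7.20 ± 0.58, with an adjusted p of 5.99e-05. IL6, which drives the acute phase response, went from 0.0948, 0.822 and 2.86 CPM to 72.7, 85.3 and 326 CPM. Cow 93 was again highest in both wells, and the exposed wells of cows 91 and 92 were close to each other. IL6 rose by 7.08 (SE 0.39, adjusted p = 9.29e-06). CSF2, which encodes GM-CSF itself, rose in every cow from 23.4, 13.6 and 6.9 CPM to 1947, 2025 and 1283 CPM, in wells that had all been given the protein in the medium. Its change was 7.02 ± 0.74 (adjusted p = 0.000283). The IL-6 family cytokine LIF went from 3.22, 1.51 and 0.514 CPM to 66, 71.6 and 58 CPM and rose by 5.33 (SE 0.43, adjusted p = 5.75e-05), with the widest spread between cows among the leading genes (4.28, 5.41 and 6.38). IL18 and CSF1 were the members that were not called, at 0.60 (adjusted p = 0.0893) and 0.28 (adjusted p = 0.308), and the sign of CSF1 turned to -0.12 with plain library totals.

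Chemokines attract other leukocytes to a site of infection, and all 7 tested members rose. CXCL8, the main attractant of neutrophils, was already at 661, 410.1 and 829.6 CPM in the control wells and reached 10704, 11766 and 12092 CPM. The exposed wells were within a narrow band, and the rise of 4.24 (SE 0.30, adjusted p = 3.11e-05) was widest in cow 92, whose control well was lowest. The related CXCL2 went from 300.0, 323 and 381 CPM to 6566, 8911 and 7521 CPM, and its counts held fractions in all 6 libraries, which marks reads shared with similar genes, so that its level is uncertain. CCL3, an attractant of monocytes, was at 4327, 1767 and 1609.7 CPM in the control wells and reached 15448, 11490.5 and 9777 CPM. Its control well of cow 91 was far above the other two, and that cow gave the smallest of the 3 changes, 1.84. CCL3 rose by 2.38 (SE 0.36, adjusted p = 0.00202), and CCL4, which shares a receptor with it, by 4.27 (SE 0.44, adjusted p = 0.000251). CXCL16, a chemokine that is also a scavenger receptor, had the smallest change of the 7, 1.90, and an even one, with 1.83, 1.93 and 1.93 in the 3 cows. CCL5, an attractant of T cells, was called as well, and CCL8 is given with the changes over time below. The summed level of the list went from between 3839 and 7099 CPM to between 42403 and 51159 CPM.

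Per length of transcript, 4 of the chemokines came to stand among the 10 most abundant mRNAs of the exposed wells. On the authors' scale of TPM, which divides counts by transcript length, CCL4 had a mean of 1682 ± 518 (SD, n = 3) in the control wells and 22530 ± 2976 (SD, n = 3) in the exposed wells, which took it from rank 85 to rank 2 of all listed genes. CCL3 moved from rank 16 to rank 3, CXCL8 from 219 to 6, and CXCL2 from 285 to 8. CCL8 moved from rank 267 to rank 47 and CXCL16 from 553 to 244. IL1B climbed from rank 2560 to rank 20, and CSF2 from 3509 to 41. The iron storage genes FTH1 and FTL and the antigen presentation gene B2M held high ranks in both states (3 and 4, 6 and 15, 7 and 11). Of the 10 most abundant tested genes of the exposed wells on this scale, 7 had been called higher, of the first 20 there were 9 and of the first 50 there were 21, against 9.93% of all tested genes. The ranking uses the same exposed wells as the calls, so that an excess of genes called higher at its top is partly built in.

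**Figure D2:**
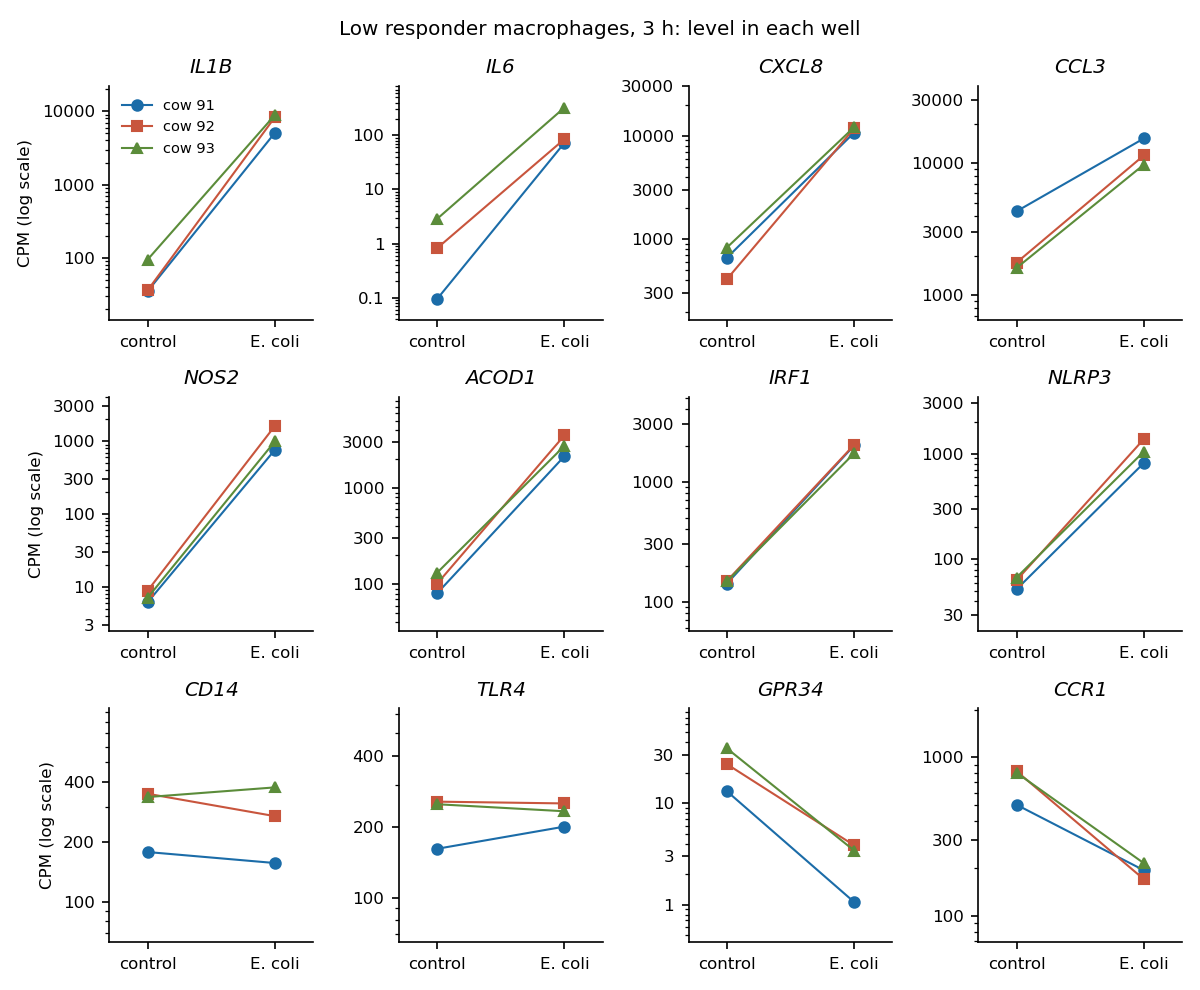
Each panel gives the level of 1 gene in the control well (left) and the exposed well (right) of each cow, in CPM on a log axis that differs between panels, with a line joining the wells of 1 cow. In the first 8 panels the exposed wells lie above all control wells, CD14 and TLR4 overlap, and the exposed wells of GPR34 and CCR1 lie below all control wells.

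At the top of the cascade CD14 and TLR4 were not called, while 3 of 5 tested kinases below them rose. Of 11 tested genes of LPS recognition and signalling, 4 rose and 2 fell. CD14 was at 178, 348 and 335 CPM in the control wells and at 157, 269 and 375 CPM in the exposed wells, and TLR4 at 161, 256 and 249 CPM and 200.2, 251 and 233 CPM. Both overlapped between groups, and neither passed the test. The value was -0.13 ± 0.14 (adjusted p = 0.550) for CD14 and 0.06 ± 0.12 (adjusted p = 0.750) for TLR4, whose sign turned to -0.34 with plain library totals and to -0.06 without cow 91. TLR2, the receptor of bacterial lipoproteins, rose by 0.60 (SE 0.10, adjusted p = 0.00273) with similar steps in every cow (0.64, 0.57 and 0.60), although its groups overlapped since cow 91 was low in both wells. The kinases IRAK2 and MAP3K8, which carry the signal to NF-kB and to the MAP kinases, rose by 3.69 and 2.18, and TBK1, the kinase of the interferon branch, by 1.05. The kinases MAP3K7 and IKBKE were not called, at 0.26 and -0.22, and the sign of MAP3K7 turned to -0.14 with plain library totals and that of IKBKE to 0.02 without cow 92. MYD88, the shared adaptor of the toll-like receptors, fell from 112, 146 and 121 CPM to 74.7, 71.6 and 84 CPM (-0.71 ± 0.15, adjusted p = 0.0100). Its groups did not overlap, and its call was lost without cow 92 (adjusted p = 0.1002). CD180, a toll-like receptor relative that restrains TLR4, went from 13.8, 36.3 and 56 CPM to 4.96, 9.36 and 18.9 CPM. It fell by 1.66 (SE 0.21, adjusted p = 0.000873), in each cow, although the groups overlapped.

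Both NF-kB subunits with a symbol and all 10 genes with a symbol in its feedback list rose. That list held 21 genes, and the others could not be read. NFKB2 went from 122, 106 and 77.3 CPM to 853, 889 and 732 CPM and RELB, its partner in the slower branch of the pathway, rose by 1.79. TNFAIP3, the ubiquitin editor A20 that shuts the pathway down, was at 28.9, 35.5 and 26.2 CPM in the control wells and at 381, 589 and 452 CPM in the exposed wells. Its 3 changes were close (3.71, 4.05 and 4.10), and the change of 3.96 ± 0.14 in the fit had an adjusted p of 1.05e-06. NFKBIZ, a nuclear co-factor needed for secondary targets such as IL6, rose by 3.76, the survival factor BIRC3 by 3.27, and IRAK3, a decoy kinase that blocks the receptor complex, by 1.86. The range over the 10 genes was 1.04 to 3.96. The median of the list was 2.42, against -0.03 over all tested genes, of which only 19.8% had a symbol and could enter a list.

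Of 11 tested immediate early transcription factors, 10 rose. NR4A1, an orphan nuclear receptor, went from 3.22, 1.51 and 0.734 CPM to 125, 71.6 and 35.5 CPM and rose by 5.43 (SE 0.37, adjusted p = 2.36e-05). Cow 91 was highest and cow 93 lowest in both states, yet the changes within cows were alike (5.20, 5.41 and 5.27). MAFF rose by 3.49, EGR1 by 2.26, ATF3, a brake on cytokine genes, by 1.69 and BHLHE40 by 0.89. The exception was FOSL2, a partner of JUN proteins, at -0.54, with all 3 exposed wells below the control wells but under the fold threshold. In the feedback on MAP kinases, 3 of 8 tested genes rose and 1 fell. The phosphatases DUSP1 and DUSP16 rose by 2.24 and 1.27 and the stress gene GADD45B by 2.42, while SPRY2, an inhibitor of growth factor signals, fell by 1.66 (SE 0.21, adjusted p = 0.000813). Without cow 92, the calls of ATF3, GADD45B and DUSP16 were lost (adjusted p = 0.0644, 0.0605 and 0.0728).

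**Figure D3:**
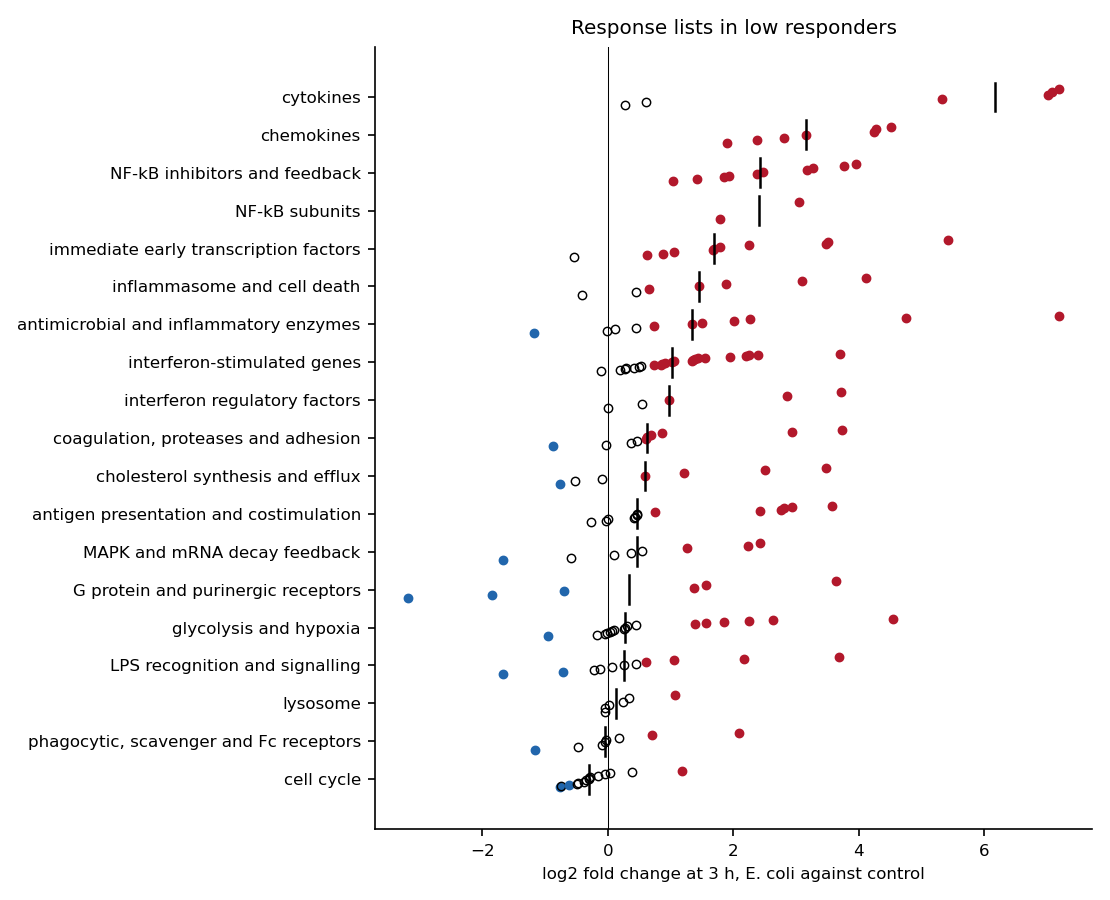
Each circle is a tested gene of a response list, placed by its log2 fold change at 3 h (horizontal). Red and blue circles were called higher and lower, open circles were not called, and the bar is the median of the list, which was highest for the cytokines (6.18) and lowest for the cell cycle genes (-0.29).

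Of 5 tested interferon regulatory factors and partners, 3 rose. IRF1, a transcription factor that mouse macrophages need to induce NOS2, stood at 142, 149 and 148 CPM in the control wells and at 2004, 2028 and 1722 CPM in the exposed wells, with a change of 3.71 ± 0.20 (adjusted p = 7.99e-06). Its level was even within each group of wells. IRF8, a factor of the macrophage lineage, went from 63.3, 55 and 38 CPM to 485, 465 and 227 CPM and rose by 2.86, and IRF9, which binds interferon response elements, by 0.97, a call that was lost without cow 91 or cow 92 (adjusted p = 0.0924 and 0.0574). Of 23 tested interferon-stimulated genes, 16 rose and none fell. IFIT1, an RNA binding antiviral protein, went from 202, 484 and 319 CPM to 1355, 2099 and 1206 CPM, and cow 92 was highest in both states. It rose by 2.26 (SE 0.23, adjusted p = 0.000241), the ubiquitin-like ISG15 by 2.21, the RNA sensor IFIH1 by 1.94 and the guanylate binding protein GBP5 by 3.70. GBP5 began low in cow 91, at 9.2, 40.5 and 27.7 CPM, and ended lowest there too, at 151, 554 and 282 CPM. The 7 members that were not called lay between -0.11 for LGALS3BP and 0.53 for SAMD9. The median of the list was 1.02.

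Of 11 tested antimicrobial and inflammatory enzymes, 7 rose and 1 fell. NOS2 was at 6.16, 8.9 and 7.12 CPM in the control wells and at 761, 1619 and 994 CPM in the exposed wells. The change of 7.19 ± 0.26 had an adjusted p of 1.05e-06, and cow 92 was highest in both states. ACOD1, the mitochondrial enzyme that makes itaconate, went from 80.6, 101 and 132 CPM to 2155, 3557 and 2762 CPM and rose by 4.75 (SE 0.19, adjusted p = 1.94e-06). ARG2, which uses the same arginine as NOS2, rose by 2.27 and NCF1, a subunit of the oxidase that makes superoxide, by 1.51. HMOX1, which degrades haem, was the member that fell, from 78.6, 92.4 and 86.1 CPM to 41, 39.1 and 33.6 CPM (-1.18 ± 0.16, adjusted p = 0.00113).

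Of 7 tested genes of inflammasomes and cell death, 5 rose. NLRP3, the sensor whose own induction primes the inflammasome, went from 52.1, 63.4 and 67.3 CPM to 814, 1369 and 1044 CPM (4.12 ± 0.18, adjusted p = 2.61e-06). CASP4, the intracellular sensor of LPS, rose by 1.46, NAIP, a sensor of bacterial needle and flagellin proteins, by 1.89, and the survival gene BCL2A1 by 3.09. In none of these 4 did the groups overlap. In the list of glycolysis and hypoxia, 6 of 17 rose and 1 fell, and no tested enzyme of the glycolytic chain itself was called. The hexokinases, GPI, PFKL and ALDOA had no symbol assigned here and could not be read, and PFKP was tested and not called. The peptide hormone ADM went from 1.42, 1.78 and 1.25 CPM to 24.1, 27 and 53.3 CPM and rose by 4.54, most in cow 93 (3.92, 3.79 and 5.22). The glucose transporter SLC2A3 rose by 2.63, the NAD enzyme NAMPT by 1.86 and PFKFB3, which makes the activator of phosphofructokinase, by 1.56. The enzymes GAPDH, PGK1, ENO1, PKM, LDHA, TPI1 and PGAM1 lay between -0.17 for PKM and 0.28 for ENO1, which plain library totals turned to -0.13, and none was called. The lactate exporter SLC16A3 fell by 0.95 (SE 0.17, adjusted p = 0.00460), a call lost without cow 92 (adjusted p = 0.0557).

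Of 13 tested genes of antigen presentation and costimulation, 6 rose. The adhesion molecule ICAM1 went from 118, 139.8 and 153 CPM to 917, 1275 and 968 CPM (2.94 ± 0.13, adjusted p = 3.01e-06), the receptor SLAMF1 rose by 3.57, the checkpoint ligand CD274 by 2.81 and the ectoenzyme CD38 by 2.43. CD38 was uneven, with control wells at 2.37, 13.8 and 24.8 CPM. B2M, the light chain of class I molecules, moved by 0.47, under the fold threshold, with all exposed wells above the control wells. The only restraint gene with a symbol, the receptor IL4R, was likewise at 0.47 and was not called.

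Among phagocytic and scavenger receptors 2 of 8 rose and 1 fell. CLEC4E, the receptor Mincle, rose by 2.09 (SE 0.18, adjusted p = 8.50e-05) and TREM1, an amplifier of inflammation, by 0.71. CLEC5A, a lectin that signals through the same kind of adaptor, fell by 1.16. TREM1 lost its call without cow 93 (adjusted p = 0.0551), and CLEC5A without cow 91 or cow 93 (adjusted p = 0.0508 and 0.0887). The integrin chain ITGB2 was at -0.03 and not called. In the lysosome list 1 of 6 rose, the transcription factor MITF, by 1.07, which lost its call without cow 92 (adjusted p = 0.0585). The protease CTSS went from 4629, 6157 and 6199 CPM to 5847, 7739 and 6383 CPM and was not called, at 0.24, with the sign turned to -0.17 by plain library totals.

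Of 7 tested genes of cholesterol synthesis and efflux, 4 rose and 1 fell. PLTP, a phospholipid transfer protein, went from 6.26, 17 and 16.7 CPM to 92.8, 185 and 152 CPM (3.48 ± 0.46, adjusted p = 0.00101). INSIG1, which holds back sterol synthesis, rose by 2.51, least in cow 91 (1.65, 2.83 and 3.00). The efflux pump ABCA1 rose by 1.22 and lost its call without cow 91 or cow 92 (adjusted p = 0.152 and 0.215). Of 10 tested genes of coagulation, proteases and adhesion, 6 rose and 1 fell. The syndecan SDC4 rose by 3.73, the protease inhibitor SERPINB2 by 2.94, the complement component C3 by 0.69 and the plasminogen activator PLAU by 0.63. PLAU lost its call without cow 91 or cow 93 (adjusted p = 0.0850 and 0.0769). THBS1, a matrix glycoprotein, fell by 0.87 (SE 0.26, adjusted p = 0.0457), and this call was lost without any one of the 3 cows (adjusted p = 0.178, 0.235 and 0.105) and with other size factors (adjusted p = 0.0530).

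The receptors of the G protein list split evenly, with 3 of 6 higher and 3 lower. GPR84, a receptor of medium-chain fatty acids, went from 65.2, 38.2 and 20.2 CPM to 549, 497 and 368 CPM and rose by 3.64. The chemokine receptor CXCR4 rose by 1.37 and the prostaglandin receptor PTGER2 by 1.57. GPR34, a lysophospholipid receptor, had the largest fall among called genes with a symbol, no overlap and a mean of at least 10 CPM in the control wells, from 13.2, 24.4 and 34.9 CPM to 1.06, 3.85 and 3.43 CPM. The highest exposed well, that of cow 92, was still under the lowest control well, and the change was -3.18 ± 0.29 (adjusted p = 0.000124). CCR1, a receptor of CCL3 and CCL5, fell in the wells in which both ligands rose, from 503, 819 and 801 CPM to 195, 171 and 216 CPM (-1.84 ± 0.24, adjusted p = 0.000880). Counts of CCR1 held fractions in 4 of the 6 libraries. PTAFR, the receptor of platelet-activating factor, fell by 0.70, a call that was lost without cow 91 or cow 92 (adjusted p = 0.0703 and 0.134).

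Outside these lists, 3 more genes with a symbol were among the 12 largest rises without overlap and with at least 10 CPM in the exposed wells. ADAMTS5, a protease that cuts the matrix proteoglycan aggrecan, had no count in any control well and 9.1, 17.8 and 17.4 CPM in the exposed wells. Against a floor of 3 counts over the control group it was at least 156-fold higher. GFPT2, the entry enzyme of the hexosamine pathway, went from 0, 0.548 and 0.294 CPM to 8.87, 20.4 and 13.4 CPM. EDN1, the vessel-constricting peptide endothelin, went from 35.8, 38.9 and 24.5 CPM to 994, 1555 and 905 CPM and rose by 5.11 (SE 0.25, adjusted p = 5.09e-06). By the rule that named these genes, their 3 exposed wells were above the 3 control wells. The same held in 1000 of the 1119 genes called higher and in 15.7% of all tested genes.

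Genes that fell had a lower level. Per length, their median in the control wells was 12.8 TPM, against 27.4 TPM for the genes that rose. With composition factors, their median went from 18.7 CPM in the control wells to 9.47 CPM in the exposed wells. That of the genes that rose went from 29.8 to 74.7 CPM. The exposed wells were below all control wells in 732 of the 876, and in 14.9% of all tested genes. By the rule that named GPR34, the next largest falls were those of HDHD3, from 10.9, 18.5 and 13.8 CPM to 2.6, 1.65 and 2.74 CPM (-2.53 ± 0.30, adjusted p = 0.000601), and of HAS2, which makes hyaluronan, from 29.5, 49.4 and 26.5 CPM to 5.91, 8.26 and 5.4 CPM (-2.39 ± 0.32, adjusted p = 0.000995). PDK4, the kinase that keeps pyruvate out of the mitochondrial cycle, fell from 84.8, 103 and 119 CPM to 32.6, 19.5 and 21.9 CPM, least in cow 91 (-1.37, -2.40 and -2.43). The signalling adaptors SASH3, ABI3 and DOK2 fell by 1.86, 1.79 and 1.68, and the exchange factor ARHGEF10L by 1.80. A further 3 genes stood in this group, the folate carrier SLC46A1 (-1.80), the sulfate carrier SLC26A2 (-1.71) and the amino acid carrier SLC36A1 (-1.70). SLC26A2 and SLC36A1 lost their calls without cow 92 (adjusted p = 0.0956 and 0.0682) or cow 93 (adjusted p = 0.0747 and 0.0620).

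**Figure D4:**
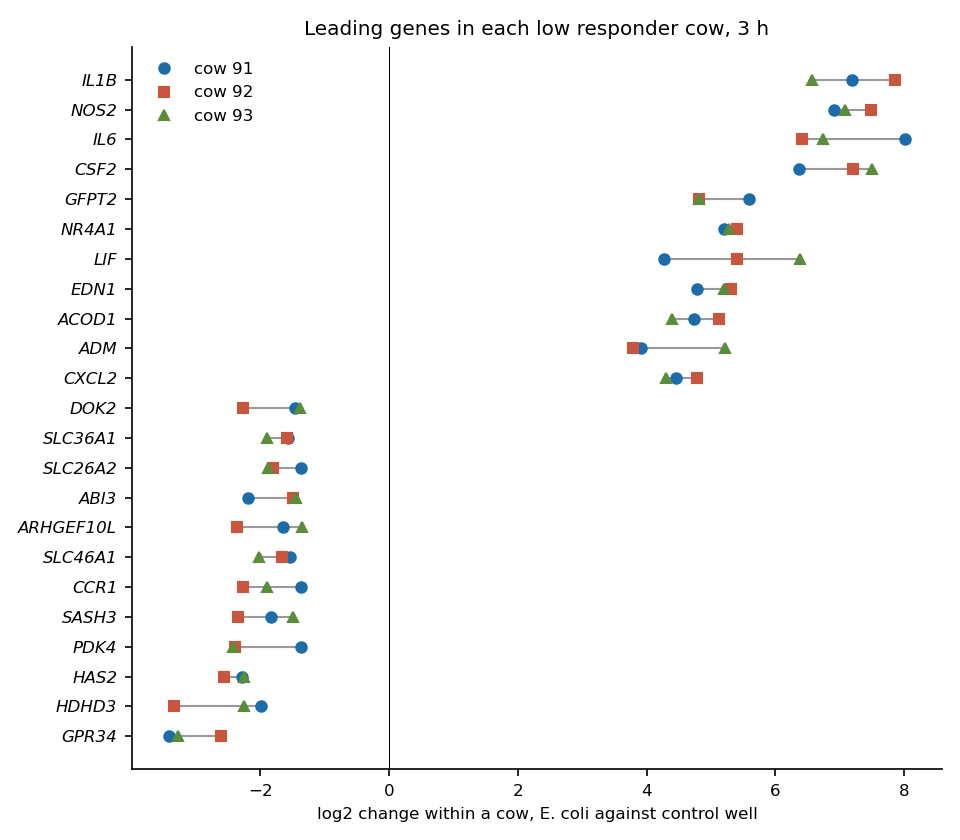
The log2 change of exposed against control well (horizontal) is given for each of the 3 cows in 11 leading genes that rose and 12 that fell, with a grey line spanning the cows. No gene crosses 0, which the choice of genes without overlap requires. LIF, IL6 and ADM spread most among those that rose, and cow 92 has the deepest fall in 6 of the 12 lower genes.

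Of 15 tested cell cycle genes, 1 rose and 2 fell at 3 h. Of the 2227 tested genes with a symbol, 443 were called higher and 169 lower, and of all tested genes 9.93% and 7.78%. CDKN1A, the inhibitor p21, rose from 434, 311 and 309 CPM to 916, 682 and 777 CPM (1.18 ± 0.19, adjusted p = 0.00279). CDC20 and MCM5 fell by 0.76 and 0.62, and both calls were lost without cow 91 (adjusted p = 0.102 and 0.147) or cow 92 (adjusted p = 0.0670 and 0.133). The other 12 were not called. At 18 h, in a fit of all 24 libraries, 13 of the 15 were lower in exposed low responder MDMs, where 17.0% of all genes in that fit were called lower. Shares given for that fit are over genes with and without a symbol. The change of the effect with time, 18 h minus 3 h, was called lower for 12 of the 15, against 10.4% of all genes, and was -1.89 (SE 0.20, adjusted p = 4.78e-05) for CDC20 and -1.69 (SE 0.21, adjusted p = 0.000123) for MCM5.

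The same contrast was read for the genes that changed at 3 h. It compares the E. coli effect of low responders at both times, each against its own control wells, and the wells were treated as unrelated across times. By the study's methods the same 3 low responder cows served both times, but the labels do not tie a well at 3 h to one at 18 h. Of the 1119 genes called higher at 3 h, 660 were also higher at 18 h, 424 were not called there and 35 were lower, against 11.6% of all genes called higher at 18 h. The contrast was called lower at 18 h for 298 of them and higher for 54, against 10.4% and 5.41% of all genes. These genes were chosen for a high effect at 3 h, which enters the contrast with a minus sign, so that an excess of lower contrasts is partly built in. IL6, among the steepest at 3 h, had an effect of 0.07 at 18 h, which was not called, and the contrast was -6.98 (SE 0.82, adjusted p = 8.70e-05). CCL8, a monocyte attractant, rose by 2.81 at 3 h, from 273, 291 and 176 CPM to 1753, 1836 and 1506 CPM, and was -5.06 at 18 h, a contrast of -7.87 (SE 0.77, adjusted p = 2.66e-05). EGR1 turned the same way, from 2.26 to -0.71 (-2.96, SE 0.37, adjusted p = 0.000145).

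Most interferon-stimulated genes and NF-kB feedback genes had a smaller effect at 18 h. Of the 23 interferon-stimulated genes, 16 were called higher at 3 h and 4 at 18 h, and the contrast was called lower for 15. IFIT1 had an effect of -0.09 at 18 h (-2.33, SE 0.45, adjusted p = 0.00297). Of the 10 feedback genes, 9 were still higher at 18 h, and the contrast was called lower for 8 of the 10, among them BIRC3 (-2.10, SE 0.17, adjusted p = 5.49e-06) and TNFAIP3 (-1.19, SE 0.17, adjusted p = 0.000347). NLRP3, NR4A1 and INSIG1 had contrasts of -2.10, -2.64 and -2.28 (adjusted p = 2.73e-05, 0.00476 and 0.000315). IL1B, CXCL8 and CSF2 were called higher at both times, and their contrasts of -1.16, -0.25 and 0.02 were not called (adjusted p = 0.200, 0.696 and 0.991).

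Other genes had a larger effect at 18 h. That on NOS2 was 7.19 at 3 h and 9.01 at 18 h (1.83, SE 0.31, adjusted p = 0.00141). The anticoagulant receptor THBD was not called at 3 h, with control wells at 2.28, 1.51 and 1.62 CPM and exposed wells at 2.01, 1.84 and 1.52 CPM, and had a contrast of 5.05 (SE 0.49, adjusted p = 2.61e-05). The calcium binding alarmins S100A8 and S100A9 rose by 1.06 and 0.95 at 3 h and had contrasts of 3.16 and 3.22 (adjusted p = 6.34e-05 and 6.10e-06). Their highest wells at 3 h were those of cow 93, and the 3 h calls were lost for S100A9 without cow 93 (adjusted p = 0.149) and for S100A8 without cow 92 or cow 93 (adjusted p = 0.0749 and 0.0726). The cytidine deaminase APOBEC3Z1 and the actin binding gene AVIL had contrasts of 4.59 and 3.38 (adjusted p = 0.000270 and 0.00108).

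Contrasts of both signs also stood among the genes that fell. Of the 876 genes called lower at 3 h, 470 were lower at 18 h, 402 were not called and 4 were higher, against 17.0% of all genes called lower at 18 h. The contrast was called higher for 174 of the 876 and lower for 93, against 5.41% and 10.4% of all genes, and the choice of genes by their 3 h effect enters these counts as well. Of the 4 that were higher at 18 h, 1 was known by a symbol, the endothelin receptor EDNRB, named here after its values were seen. EDNRB was at -1.13 at 3 h and 1.12 at 18 h, and its call at 3 h was lost without cow 92 or cow 93 (adjusted p = 0.168 and 0.143). The effect on CCR1 was -0.27 at 18 h (1.58, SE 0.29, adjusted p = 0.00220) and that on HDHD3 was -0.42 (2.11, SE 0.33, adjusted p = 0.000654), and neither effect was called at 18 h. The effect on GPR34 was -6.44 at 18 h (-3.24, SE 0.50, adjusted p = 0.000655). SIGLEC1, a sialic acid receptor of macrophages, and TNFSF13, a B cell survival cytokine, were not called at 3 h (-0.45 and -0.25) and had contrasts of -3.52 and -3.55 (adjusted p = 0.000314 and 2.25e-06). The hyaluronan receptor LYVE1 was near the detection limit at 3 h, with control wells at 0.569, 0.548 and 3.89 CPM and exposed wells at 0.236, 0 and 1.29 CPM, and had a contrast of -4.42 (SE 0.85, adjusted p = 0.00419). Its call at 3 h was lost without any one of the 3 cows and with DESeq2 (adjusted p = 0.0809, 0.0736, 0.238 and 0.0742).

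**Figure D5:**
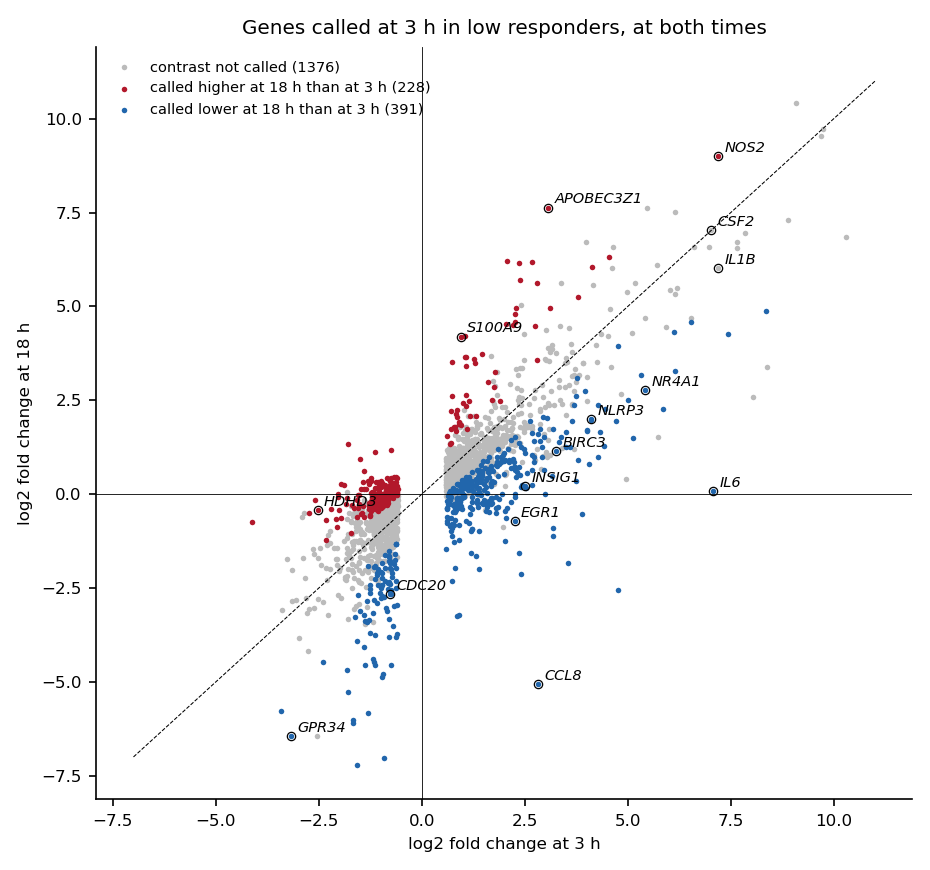
The 1995 genes called at 3 h are placed by their log2 fold change in low responders at 3 h (horizontal) and at 18 h (vertical), and the dashed line marks equal effects. Red and blue points have an effect called higher or lower at 18 h than at 3 h, with IL6 near 0 at 18 h and CCL8 far below it.

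High responder cows at 3 h, with 3 cows of their own, called 1034 of the 1119 higher genes higher and 653 of the 876 lower genes lower, where 15.7% and 11.9% of all tested genes were called. The median log2 change of the genes that rose in low responders was 1.18 there and 1.68 in high responders, where the genes had been chosen by the low responders' values. The difference of both effects, high minus low, was called higher for 20 genes (0.178%) and lower for none, with 951 and 479 genes at an unadjusted p below 0.05 and, in DESeq2, 184 and 5 calls. Of the 20, 14 had risen in low responders. Among them were GBP5 (1.96, SE 0.24, adjusted p = 0.0265), NAIP (2.04, SE 0.24, adjusted p = 0.0265), ACOD1 (1.77, SE 0.24, adjusted p = 0.0279), IFIT1 (2.59) and ZMIZ1 (2.10). ZMIZ1, a transcriptional co-regulator, rose by 0.68 in low responders, a call that was lost without cow 91 or cow 92 (adjusted p = 0.151 and 0.256) and with all 24 libraries in the fit (adjusted p = 0.0541). The complement protease C1R (2.75) and the transcription factor ETV5 (2.28) were not called in low responders alone. They stood at 0.37 and 0.11, and plain library totals turned both signs, to -0.04 for C1R and -0.29 for ETV5. For NOS2 the difference was 1.64 (SE 0.32, adjusted p = 0.0781) and was not called. This count rested on single cows. It was 0 without any one low responder cow and without high responder cow 93, with between 823 and 1171 genes at an unadjusted p below 0.05, and it was 13 without high responder cow 92 and 506 without high responder cow 94.

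The ferritin chains and an actin are the remaining genes named for their level in the exposed wells. FTH1, the heavy chain of ferritin, rose by 0.64 (SE 0.18, adjusted p = 0.0308), and its call was lost without any one of the cows (adjusted p = 0.135, 0.142 and 0.156). The light chain FTL went from 4506, 3675 and 3648 CPM to 5682, 3964 and 4377 CPM and ACTG1, a cytoskeletal actin, from 4395, 3873 and 4386 CPM to 4894, 4988 and 6145 CPM. Neither was called, at 0.24 and 0.34, and plain library totals turned the signs to -0.17 for FTL and -0.07 for ACTG1. FTH1 and FTL had fractional counts in all 6 libraries, which marks reads shared with similar genes, so that both are uncertain.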

How the data were processed

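RNA of cultured bovine macrophages was sequenced as stranded mRNA libraries. Per the labels and the study's methods, the authors trimmed reads with Trimmomatic, checked them with FastQC (version 0.11.5), mapped them by STAR (bovine assembly UMD 3.1) and used RSEM to derive an estimated count, also called expected count, per gene. Their own test was DESeq2 (version 1.22.2). The deposited estimated counts are not normalized and can hold fractions where reads are shared. The deposited TPM values are the authors' scaling of these per transcript length.

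Counts were rounded and fitted in edgeR 4.0.16 (R 4.3.3) with TMM factors and filterByExpr, on the 12 libraries of 3 h, with a term per pair of wells and an E. coli effect per phenotype. High minus low responders was a contrast of that fit, and 18 h minus 3 h one of a fit of all 24 libraries. The numbers paired the wells. Deviations of control and exposed wells from their group means correlated at 0.521 to 0.723 for equal numbers and at -0.568 to 0.00521 for others. DESeq2 1.42.0 and other filters, scalings, pairings and left-out cows were alternatives, and the scripts were tested on simulated data. TPM served for levels and ranks between genes and as an alternative scale, and it carries no composition factors.

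The members and gene lists were chosen with earlier results of these data known. Symbols came from lists of genes that the study had selected, shortened here, so that genes without a symbol entered all tests but no list. Named genes were the 12 largest changes per direction without overlap and with at least 10 CPM, up to 4 called genes per list and direction with the lowest adjusted p, the most expressed list members, anchors of the LPS response, the 5 largest contrasts per direction and the 10 genes with the highest CPM in exposed wells. A few uncalled list members are given for context. No gene was left out of the tests but by the filter. Results for a few genes are not reported here.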

Additional observations from a re-analysis of the deposited data

Results flagged for a closer look

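The effect of E. coli differed between high and low responders at 3 h, by the edgeR contrast of both effects, for 7 named genes. High minus low was 2.75 for C1R, 2.59 for IFIT1, 2.28 for ETV5, 2.10 for ZMIZ1, 2.04 for NAIP, 1.96 for GBP5 and 1.77 for ACOD1, on the log2 scale. None of these calls held when any one low responder cow was left out.

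The effect in low responders differed between 18 h and 3 h, by the contrast in the fit of all libraries, and was smaller or more negative at 18 h in the following genes. The log2 contrast was -7.87 for CCL8, -6.98 for IL6, -4.42 for LYVE1, -3.55 for TNFSF13, -3.52 for SIGLEC1 and -3.24 for GPR34. It was -2.96 for EGR1, -2.64 for NR4A1, -2.33 for IFIT1, -2.28 for INSIG1, -2.10 for BIRC3 and -2.10 for NLRP3. It was -1.89 for CDC20, -1.69 for MCM5 and -1.19 for TNFAIP3.

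The contrast was higher at 18 h in a smaller set. It was 5.05 for THBD, 4.59 for APOBEC3Z1, 3.38 for AVIL, 3.22 for S100A9, 3.16 for S100A8, 2.11 for HDHD3, 1.83 for NOS2 and 1.58 for CCR1.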

How the results depend on the processing

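The number of genes called at 3 h in low responders (1995) stayed within 1.5 times under other size factors, filters, thresholds, length offsets, DESeq2, thinned counts and other sets of libraries in the fit. Without the replicate block it was 829 (597 higher and 232 lower), and with plain library totals 3619 (642 higher and 2977 lower). Leaving out 1 cow gave 932 to 1387 calls, 656 to 917 higher and 276 to 470 lower. The contrast of 18 h and 3 h, called for 1881 genes (644 higher and 1237 lower), gave 479 without the block (127 higher and 352 lower) and 1338 to 1464 with 1 cow left out (367 to 440 higher and 942 to 1048 lower).

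The count for high minus low responders, 20 higher and 0 lower, moved most. It was 103 with no filter on low counts (100 higher and 3 lower), 189 in DESeq2 (184 and 5), 34 with length offsets (34 higher), 123 at an adjusted p below 0.1 (119 and 4) and 0 without the replicate block, with 330 genes at an unadjusted p below 0.05. With 1 cow left out it ranged from 0 to 506, 0 to 443 of them higher and 0 to 63 lower. The causes were not tested.

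Among the named genes, the signs that turned under these alternatives were those of genes not called at 3 h. With plain library totals the log2 change was -0.17 for CTSS, -0.34 for TLR4, -0.0362 for C1R, -0.29 for ETV5, -0.0662 for ACTG1, -0.17 for FTL, -0.12 for CSF1, -0.13 for ENO1 and -0.14 for MAP3K7. Centred on the median of all tested genes, THBD was at 0.00424. With 1 cow left out, ITGB2 lay between -0.157 and 0.0501, TLR4 between -0.0611 and 0.146, THBD between -0.131 and 0.0660, IKBKE between -0.435 and 0.0218 and ETV5 between -0.103 and 0.283. On the TPM scale the ratio of exposed to control levels of TLR4 was 0.725. Of the named genes, 25 lost their call without the block, 11, 19 and 11 without cow 91, 92 and 93, and 10 with plain library totals.

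The depth of 6297189 counts in the smallest library limits the genes near the filter, and 3 cows limit every comparison.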
